A study of Rattus norvegicus with 12 samples.

Results

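The receptors Kit, Met, Pdgfra and Pdgfrb and their ligands Kitlg, Hgf, Pdgfa, Pdgfb, Pdgfc and Pdgfd were examined in rat ovary by RNA sequencing. These 10 genes were found by gene name among the 19730 genes of the expression table, 1 gene identifier for each name. Kit and Met had been chosen by their FPKM, which was high in rats with polycystic ovary syndrome (PCOS), and the other 8 genes were taken because they are their ligands or the related PDGF receptors and ligands. The differences of Kit and Met that involve the PCOS group are therefore given as a description without a test. Each group held 4 libraries from wild type Sprague Dawley females aged 15 weeks, 1 rat per library. The control group was untreated and kept on standard food. The PCOS group received letrozole, an inhibitor of the aromatase that makes oestrogen from androgen, together with a high-fat diet (HFD) for 30 days. The PCOS-MV group received the same letrozole and HFD and then mogroside V (MV), a sweet glycoside of the fruit of Siraitia grosvenorii, for 30 days. The MV preparation was only partly pure according to the study's methods, and a vehicle gavage for the other groups was not given in the sources used here, so MV cannot be told apart from the rest of the preparation or from the gavage itself.

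Kit, Met and the PDGF receptors are receptor tyrosine kinases of the cell surface, which pair and phosphorylate each other when a secreted or membrane-bound ligand binds. In the ovary, Kit ligand is made mainly by granulosa cells and acts on Kit of oocytes and theca cells, while hepatocyte growth factor (Hgf) is made by theca and stromal cells and acts on Met of neighbouring epithelial and granulosa cells. PDGF receptor alpha marks theca and stromal cells and is bound by the chains made from Pdgfa and Pdgfc, whereas PDGF receptor beta marks pericytes and other mural cells of vessels and is bound by the chains made from Pdgfb and Pdgfd, with some cross-binding.

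In the coordinates of the authors' table, whose genome build is not given in the sources used here, Kit (ENSRNOG00000002227) lay on the minus strand of chromosome 14 from 35072108 to 35149610. Pdgfra (ENSRNOG00000002244) lay on the same strand from 35527927 to 35581031. The interval between these 2 genes was 378 kb and held 0 other genes of the table. Kdr, a receptor for vascular endothelial growth factor, lay 285 kb from Kit in the same cluster of receptor genes. Met (ENSRNOG00000052745) lay on chromosome 4 from 44774741 to 44852665, on the same chromosome as its ligand gene Hgf (ENSRNOG00000007027, from 15433295 to 15505362). Pdgfb (ENSRNOG00000017197) and Kitlg (ENSRNOG00000005386) lay on chromosome 7, from 121214628 to 121232741 and from 42269784 to 42351054. Pdgfrb (ENSRNOG00000018461), Pdgfa (ENSRNOG00000001312), Pdgfc (ENSRNOG00000010695) and Pdgfd (ENSRNOG00000029148) lay on chromosomes 18, 12, 2 and 8.

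The 250 bases before the annotated start were available for 9 of the 10 genes in RefSeq sequences of the GRCr8 assembly, a build that need not be the one of the authors' table. Those of Kit, Met, Pdgfra and Pdgfb are shown, each 5′ to 3′ on the gene's strand, because these genes had the largest differences between the PCOS and control groups among the receptors and ligands described below. Capitals mark matches, on either strand, to one of these motifs: the GC box GGGCGG, the CCAAT box, the TATA box with the letters TATAAA, the E-box with the letters CACGTG, the nuclear receptor core site with the letters AGGTCA and the AP-1 site with the letters TGANTCA, where N is any base.
Kit, chr14:32978813-32979062, minus strand: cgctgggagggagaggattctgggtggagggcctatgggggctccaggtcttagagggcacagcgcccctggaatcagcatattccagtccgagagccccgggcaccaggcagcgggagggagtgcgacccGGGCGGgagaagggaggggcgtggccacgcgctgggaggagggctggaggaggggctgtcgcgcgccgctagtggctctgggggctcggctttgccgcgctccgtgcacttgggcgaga
Met, chr4:46784496-46784745, plus strand: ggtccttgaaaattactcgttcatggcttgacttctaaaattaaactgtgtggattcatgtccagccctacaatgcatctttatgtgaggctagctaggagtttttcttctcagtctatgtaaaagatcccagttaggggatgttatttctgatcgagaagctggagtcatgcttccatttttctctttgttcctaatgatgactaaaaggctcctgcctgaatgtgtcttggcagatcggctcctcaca
Pdgfra, chr14:33408517-33408766, minus strand: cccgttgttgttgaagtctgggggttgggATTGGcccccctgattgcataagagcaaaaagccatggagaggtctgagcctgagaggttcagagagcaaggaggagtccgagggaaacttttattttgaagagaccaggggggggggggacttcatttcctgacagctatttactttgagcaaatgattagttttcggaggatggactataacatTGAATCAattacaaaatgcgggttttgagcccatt
Pdgfb, chr7:113438344-113438593, minus strand: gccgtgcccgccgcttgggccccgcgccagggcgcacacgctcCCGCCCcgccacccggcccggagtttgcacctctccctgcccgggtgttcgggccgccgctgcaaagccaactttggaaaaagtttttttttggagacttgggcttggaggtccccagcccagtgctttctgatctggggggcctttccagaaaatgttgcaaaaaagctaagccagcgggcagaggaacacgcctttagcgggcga
The Kit window was 70.8% G and C and held 1 GC box, which began at position -119 relative to the start. The Pdgfb window was 63.6% G and C and held 1 GC box at -207, on the opposite strand. The Pdgfra window was 47.2% G and C, with a CCAAT box at -221 on the opposite strand and an AP-1 site at -35. The Met window was 42% G and C, below the median of 51.2% over the 33469 promoters of the same length, and held no match to these letters. Of all these promoters, 30.5% held the GC box letters, 34% the CCAAT box, 12.9% the TATA box, 5.59% the E-box, 14.1% the half-site and 6.34% the AP-1 letters. The Kit and Pdgfb windows thus shared the GC box, and no motif could be common to all 4 windows because that of Met held none.

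Expression was given as FPKM (fragments per kilobase of gene length, relative to the mapped fragments of the library), a scale that allows levels to be compared between genes. The smallest steps between low FPKM values placed the depth at about 30200000 to 36900000 fragments per library if 1 step is 1 fragment. This figure is uncertain, because only 20.7% to 23.6% of the low values in a library lay on whole multiples of its step. If that depth holds, each of the 10 genes rested on at least 160 fragments in every library, the lowest being Pdgfa. Libraries of 1 group correlated at 0.9208 to 0.9784 (Pearson, log2(FPKM + 1) across genes), and PCOS and control libraries at 0.8844 to 0.9183. Markers of the labelled tissue were present in all groups, among them the oocyte growth factor gene Gdf9 at 2.90 to 6.82 FPKM and the granulosa cell gene Fshr at 3.36 to 20.3 FPKM. Control replicate 3 stood apart in the summed FPKM of 8 markers of oviduct and surface epithelium, with 260.7 against 25.4 in the lowest control library. Without this library, the log2 fold changes between PCOS and control were 2.19 for Kit, 1.52 for Met, 0.79 for Pdgfra, -0.69 for Pdgfrb, -1.25 for Pdgfb and 0.68 for Pdgfc, and the last 4 remained past the threshold (limma).

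Kit, the receptor of stem cell factor, was far higher in PCOS ovaries than in either other group. The 4 control libraries held 6.70, 7.61, 13.2 and 13.8 FPKM, the 4 PCOS libraries 42.0, 46.0, 44.9 and 44.3 FPKM, and the 4 PCOS-MV libraries 8.91, 5.31, 14.1 and 7.42 FPKM. The PCOS values lay close together and wholly above the others, whereas the control and PCOS-MV values covered the same range. The mean Kit level was 10.3 ± 3.70 FPKM in the control group, 44.3 ± 1.70 in the PCOS group and 8.93 ± 3.75 in the PCOS-MV group (SD, n = 4 each). The PCOS mean was 4.28 times the control mean and 4.96 times the PCOS-MV mean. On the log2(FPKM + 1) scale, on which all fold changes here are given and which understates those of low genes, the difference was 2.06 between PCOS and control. In RNA of a whole ovary, more cells of a type and more RNA per cell, or fewer cells of a type and less RNA per cell, cannot be told apart.

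Met, the receptor of hepatocyte growth factor, was also highest in the PCOS libraries, with a wider spread than Kit. Its FPKM was 9.24, 10.5, 11.95 and 12.51 in the control libraries, 36.9, 34.3, 27.1 and 32.3 in the PCOS libraries, and 21.0, 11.8, 9.28 and 15.3 in the PCOS-MV libraries. Every PCOS library was above every other library, and PCOS-MV replicate 1 was the highest of the remaining 8. The means were 11.1 ± 1.47, 32.6 ± 4.14 and 14.4 ± 5.08 FPKM (SD, n = 4 each), so that the PCOS mean was 2.95 times the control mean and 2.27 times the PCOS-MV mean.

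**Figure D1:**
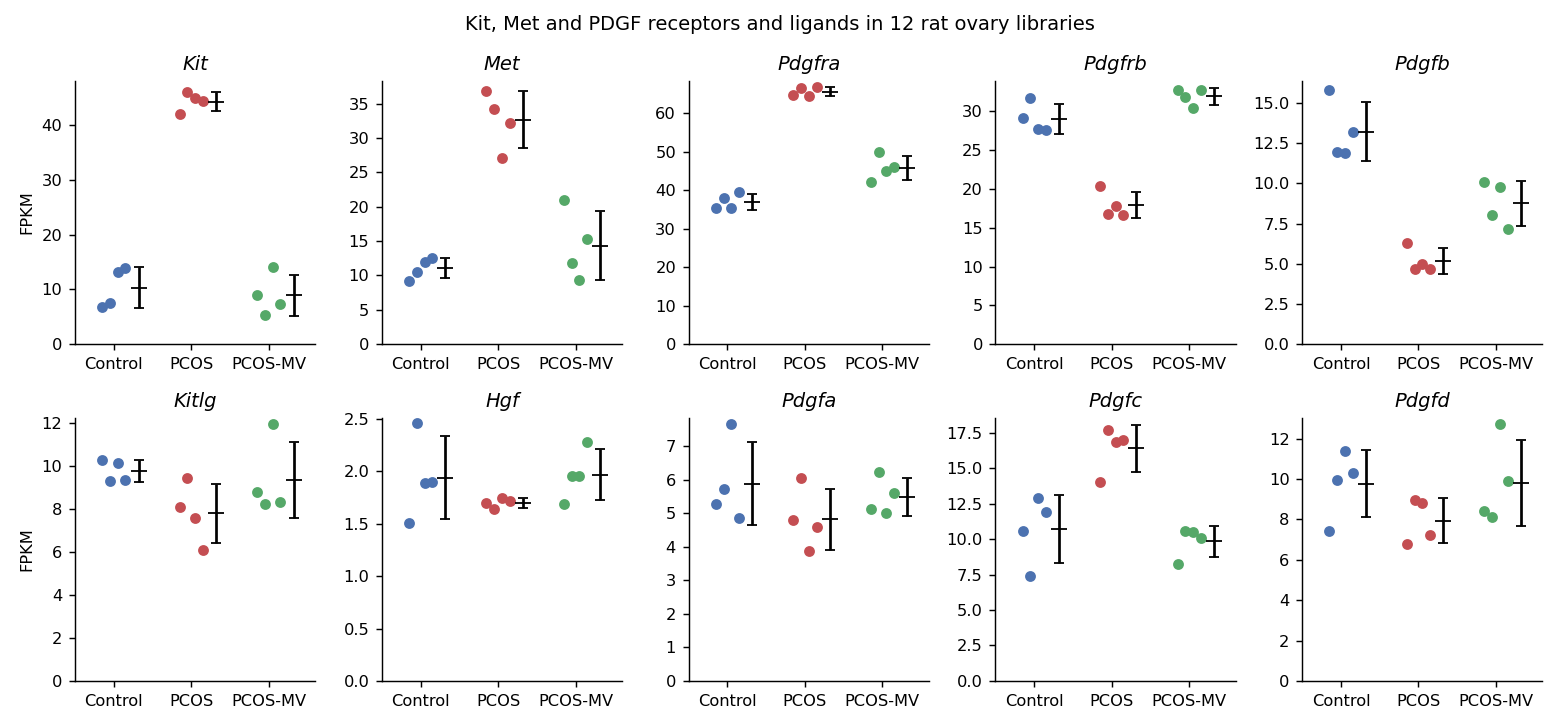
FPKM of the 10 genes (y axis, a scale of its own for each gene, starting at 0) in the libraries of the control, PCOS and PCOS-MV rats, 4 per group. Points are libraries in replicate order and bars are the mean ± SD. Kit, Met and Pdgfra are highest in the PCOS group, Pdgfrb and Pdgfb are lowest there, and the points of Hgf, Pdgfa, Pdgfd and Kitlg overlap between the groups.

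Of the 8 genes whose difference between PCOS and control was tested, 2 were higher, 2 were lower and 4 did not pass (limma, Benjamini-Hochberg adjusted p under 0.05 over the 13430 genes whose mean reached 1 FPKM). All 10 members reached that mean and were in the fit, and no test is given for Kit and Met. Over all genes tested, 27.4% passed in this comparison, 11.9% as higher and 15.6% as lower, with a median log2 fold change of -0.03. With the libraries rescaled by their median ratio, 1918 genes were higher and 1920 lower, against 1594 and 2090 as deposited. The libraries of the 2 groups did not overlap for 4 of the 8 genes, against 31.0% of all genes tested.

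The 2 PDGF receptors changed in opposite directions. Pdgfra, the alpha receptor, was 35.3, 37.95, 35.3 and 39.5 FPKM in the control libraries and 64.8, 66.5, 64.6 and 66.8 FPKM in the PCOS libraries. All PCOS libraries thus exceeded all control libraries, and they lay within 3 FPKM of each other. Pdgfra rose by 0.81 on the log2 scale (standard error 0.063, adjusted p = 5.29e-05 from limma), from a mean of 37.0 ± 2.08 to 65.7 ± 1.13 FPKM (SD, n = 4 each). Pdgfrb, the beta receptor, was 29.1, 31.7, 27.7 and 27.6 FPKM in the control libraries and 20.4, 16.8, 17.9 and 16.6 FPKM in the PCOS libraries. Here every PCOS library was below every control library. Pdgfrb fell by 0.67 on the log2 scale (standard error 0.084, adjusted p = 0.000653 from limma). The control mean of Pdgfrb was 1.62 times the PCOS mean.

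Among the PDGF ligands, Pdgfb fell and Pdgfc rose, while Pdgfa and Pdgfd did not pass the test. Pdgfb, whose chain binds the beta receptor with high affinity and is made largely by endothelium, was 15.8, 11.95, 11.9 and 13.2 FPKM in the control libraries and 6.32, 4.67, 5.02 and 4.68 FPKM in the PCOS libraries. The highest PCOS value was well under the lowest control value. The control mean was 2.55 times the PCOS mean, and the log2 fold change was -1.20 (standard error 0.12, adjusted p = 0.000181 from limma), the largest among the 8 tested genes. Pdgfc, an alpha receptor ligand that needs proteolytic activation, was 10.6, 7.38, 12.9 and 11.9 FPKM in the control libraries and 14.01, 17.7, 16.9 and 17.0 FPKM in the PCOS libraries. Its 2 groups came close at 12.9 and 14.01 FPKM but did not overlap. Pdgfc rose by 0.59 on the log2 scale (standard error 0.16, adjusted p = 0.0231 from limma). This call held in 5 of 8 fits that each left out 1 library, and it was lost without PCOS replicate 2 (adjusted p = 0.0645 from limma), 3 (0.058) or 4 (0.0621).

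Pdgfa, the other alpha receptor ligand, ranged from 4.87 to 7.67 FPKM in the control group and from 3.87 to 6.05 FPKM in the PCOS group, with a log2 fold change of -0.24 (95% interval -0.58 to 0.11). Pdgfd, the other beta receptor ligand, ranged from 7.44 to 11.4 FPKM in the control group and from 6.76 to 8.96 FPKM in the PCOS group, with a log2 fold change of -0.26 (95% interval -0.57 to 0.05). Both pairs of groups overlapped, and the adjusted p-values from limma were 0.279 and 0.192.

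The ligands of Kit and Met did not pass the test in the comparison in which their receptors stood out. Kitlg, the Kit ligand gene, was 10.3, 9.29, 10.2 and 9.36 FPKM in the control libraries and 8.07, 9.43, 7.57 and 6.11 FPKM in the PCOS libraries. Only PCOS replicate 2 reached into the control range. The log2 fold change of Kitlg was -0.30 (95% interval -0.57 to -0.04, adjusted p = 0.0823 from limma). Hgf was the lowest of the 10 genes in every group and ranged from 1.51 to 2.46 FPKM in the control group and from 1.64 to 1.74 FPKM in the PCOS group. The PCOS values of Hgf lay inside the control range, and its log2 fold change was -0.11 (95% interval -0.38 to 0.15, adjusted p = 0.509 from limma). For the 4 genes that passed, the exact two-sided permutation test of 4 libraries against 4 gave p = 0.0286, the smallest p this design allows.

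The order of the levels differed between the groups. In the control group, Pdgfra (37.0 FPKM) and Pdgfrb (29.0 FPKM) stood above all other members without overlap. Pdgfb, Met, Pdgfc, Kit, Kitlg and Pdgfd followed at means of 13.2 to 9.76 FPKM, each overlapping its neighbour in the order, and Pdgfa (5.89 FPKM) overlapped Pdgfd. Hgf was last at 1.94 FPKM and lay apart from Pdgfa. In the PCOS group, Pdgfra (65.7 FPKM) was followed by Kit (44.3 FPKM) and Met (32.6 FPKM), each apart from the next, and Pdgfrb (17.9 FPKM) came next and overlapped Pdgfc (16.4 FPKM). Pdgfd, Kitlg, Pdgfb and Pdgfa then overlapped in turn between means of 7.95 and 4.83 FPKM. In the PCOS-MV group, Pdgfra (45.8 FPKM) and Pdgfrb (31.9 FPKM) again led the order and lay apart from each other and from Met (14.4 FPKM). The ranges of Met, Pdgfc, Pdgfd, Kitlg, Kit and Pdgfb overlapped from neighbour to neighbour, with means from 14.4 down to 8.76 FPKM.

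**Figure D2:**
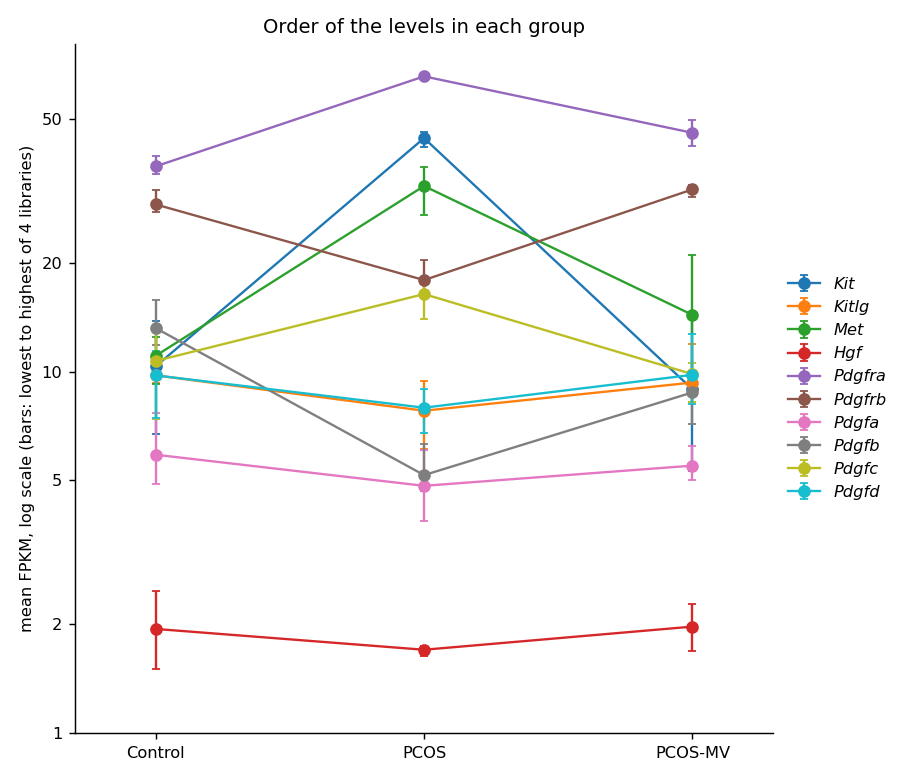
Mean FPKM of the 10 genes (log axis) in each group of 4 libraries. Bars run from the lowest to the highest library and lines join the means of 1 gene. Kit and Met move from about 10 FPKM in the control group to the places behind Pdgfra in the PCOS group, where both lie above Pdgfrb.

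To compare the paralogues with each other, the ratio of FPKM within each library was compared as a difference of log2(FPKM + 1). The ratio of Pdgfra to Pdgfrb was 1.21, 1.20, 1.27 and 1.43 in the control libraries, 3.18, 3.95, 3.62 and 4.02 in the PCOS libraries, and 1.29, 1.56, 1.48 and 1.41 in the PCOS-MV libraries. The alpha receptor thus exceeded the beta receptor in all 12 libraries, and by the widest margin in the PCOS group. The difference of the log2 ratio was 1.48 between PCOS and control and -1.32 between PCOS-MV and PCOS, without overlap of the libraries in either (exact permutation p = 0.0286 each, 0.0514 after Benjamini-Hochberg adjustment over 9 ratio tests). The ratio of Pdgfc to Pdgfd was 1.11 ± 0.281 in the control group, 2.08 ± 0.194 in the PCOS group and 1.03 ± 0.199 in the PCOS-MV group (SD, n = 4 each). Its log2 difference was 0.85 between PCOS and control and -0.94 between PCOS-MV and PCOS, with the same exact and adjusted p-values. The ratio of Pdgfa to Pdgfb was 0.457 ± 0.140 in the control group, 0.952 ± 0.251 in the PCOS group and 0.645 ± 0.155 in the PCOS-MV group (SD, n = 4 each). Its log2 difference was 0.96 between PCOS and control (exact permutation p = 0.0286, adjusted 0.0514) and -0.49 between PCOS-MV and PCOS (exact permutation p = 0.143). None of the 9 ratio tests passed an adjusted p of 0.05, which a design of 4 against 4 could have reached only if more of the 9 had been at the smallest p. The ratios between PCOS-MV and control had exact permutation p-values from 0.114 to 0.686.

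As a description, the ratio of Kit to its ligand gene Kitlg was 0.653 to 1.48 in the control libraries, 4.88 to 7.25 in the PCOS libraries and 0.644 to 1.18 in the PCOS-MV libraries. The ratio of Met to Hgf was 4.28 to 6.58 in the control libraries, 15.6 to 21.7 in the PCOS libraries and 4.75 to 12.4 in the PCOS-MV libraries. In both pairs the PCOS libraries lay above all others, while the ligand levels overlapped between the groups.

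**Figure D3:**
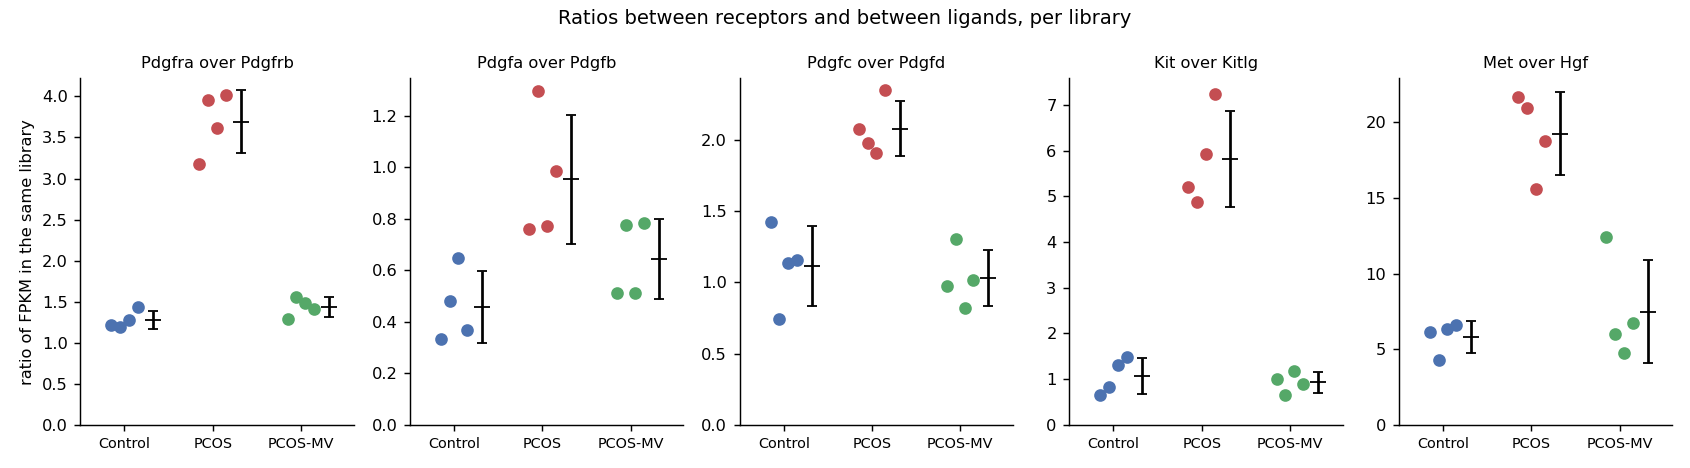
Ratio of FPKM between 2 genes of the same library (y axis starting at 0, own scale per panel) for receptors and ligands in the 3 groups, with points for the 4 libraries of each group and bars for the mean ± SD. The ratio of Pdgfra to Pdgfrb is 3.18 to 4.02 in the PCOS libraries and at most 1.56 elsewhere.

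In the comparison of PCOS-MV with PCOS, 25.7% of all genes tested passed, 14.3% as higher and 11.4% as lower in PCOS-MV, and the median log2 fold change was 0.03. The PCOS libraries entered this comparison as well as the one with the control group, so the 2 sets of values are not independent and are set side by side only. Of the 8 members tested, 2 were higher, 2 were lower and 4 did not pass, and 4 of 8 had groups that did not overlap, against 30.0% of all genes tested. Kit differed by -2.26 and Met by -1.18 on the log2 scale, as a description.

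Pdgfra was 42.2, 49.8, 45.1 and 46.2 FPKM in the PCOS-MV libraries, below all PCOS libraries. It fell by 0.51 on the log2 scale (standard error 0.067, adjusted p = 0.00121 from limma), beside a rise of 0.81 between control and PCOS. Pdgfrb was 32.7, 31.9, 30.4 and 32.8 FPKM in the PCOS-MV libraries, above all PCOS libraries. Its log2 fold change was 0.80 (standard error 0.078, adjusted p = 0.000331 from limma), to a mean 1.78 times that of the PCOS group. The receptor pair therefore again moved in opposite directions.

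Of the ligands, Pdgfb was 10.1, 8.04, 9.79 and 7.15 FPKM in the PCOS-MV libraries. It rose by 0.66 on the log2 scale (standard error 0.13, adjusted p = 0.00747 from limma), to 1.69 times the PCOS mean. Pdgfc was 8.23, 10.6, 10.5 and 10.1 FPKM and fell by 0.68 (standard error 0.10, adjusted p = 0.00227 from limma). None of these 4 genes had a PCOS-MV library inside the PCOS range, and each of the 4 calls held in 8 of 8 fits that left out 1 library. Kitlg was 8.79, 8.25, 11.95 and 8.32 FPKM in the PCOS-MV libraries, with replicate 3 far above the others. The log2 fold changes were 0.23 for Kitlg (95% interval -0.11 to 0.57), 0.13 for Hgf (-0.06 to 0.33), 0.16 for Pdgfa (-0.11 to 0.44) and 0.26 for Pdgfd (-0.08 to 0.60), and the adjusted p-values from limma were 0.231 to 0.359.

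The comparison of PCOS-MV with control did not use the PCOS libraries, so Kit and Met were tested here. Over all genes tested, 0.00745% passed, which was 1 gene, Senp1, a SUMO protease gene listed at 0 in every control library and at a mean of 3.90 FPKM in the PCOS-MV libraries. In 1 model for all 12 libraries Senp1 was not called, and the 1 gene called was Mcpt1l1, a mast cell protease gene, which was lower at a mean of 0.359 FPKM in PCOS-MV against 3.19 in control (adjusted p = 0.0233 from limma). Both genes were singled out after their values were seen. An unadjusted p under 0.05 was reached by 1142 genes (8.50%). Of the 10 members, 0 passed. Kit differed by -0.20 on the log2 scale, with a 95% interval of -0.91 to 0.51 that covers changes close to a factor of 2 (adjusted p = 0.855 from limma). Met differed by 0.30, with a 95% interval of -0.21 to 0.81 (adjusted p = 0.699 from limma).

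The libraries of PCOS-MV and control did not overlap for 2 of the 10 members, against 5.10% of all genes tested. Pdgfra was 42.2 to 49.8 FPKM in the PCOS-MV group and 35.3 to 39.5 FPKM in the control group, a log2 difference of 0.30 (95% interval 0.13 to 0.47, adjusted p = 0.478 from limma). Pdgfb was 7.15 to 10.1 FPKM in the PCOS-MV group and 11.9 to 15.8 FPKM in the control group, a log2 difference of -0.54 (95% interval -0.84 to -0.24, adjusted p = 0.459 from limma). Taken alone, each gave an exact permutation p of 0.0286, and neither passed after adjustment over all genes. In both, the PCOS-MV libraries lay between those of the other groups. Pdgfrb differed by 0.14 (95% interval -0.03 to 0.30), with PCOS-MV values that overlapped the control range at its upper end. The other 5 ligands had log2 differences between -0.09 and 0.02, and the widest of their intervals was -0.37 to 0.37, for Pdgfd.

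**Figure D4:**
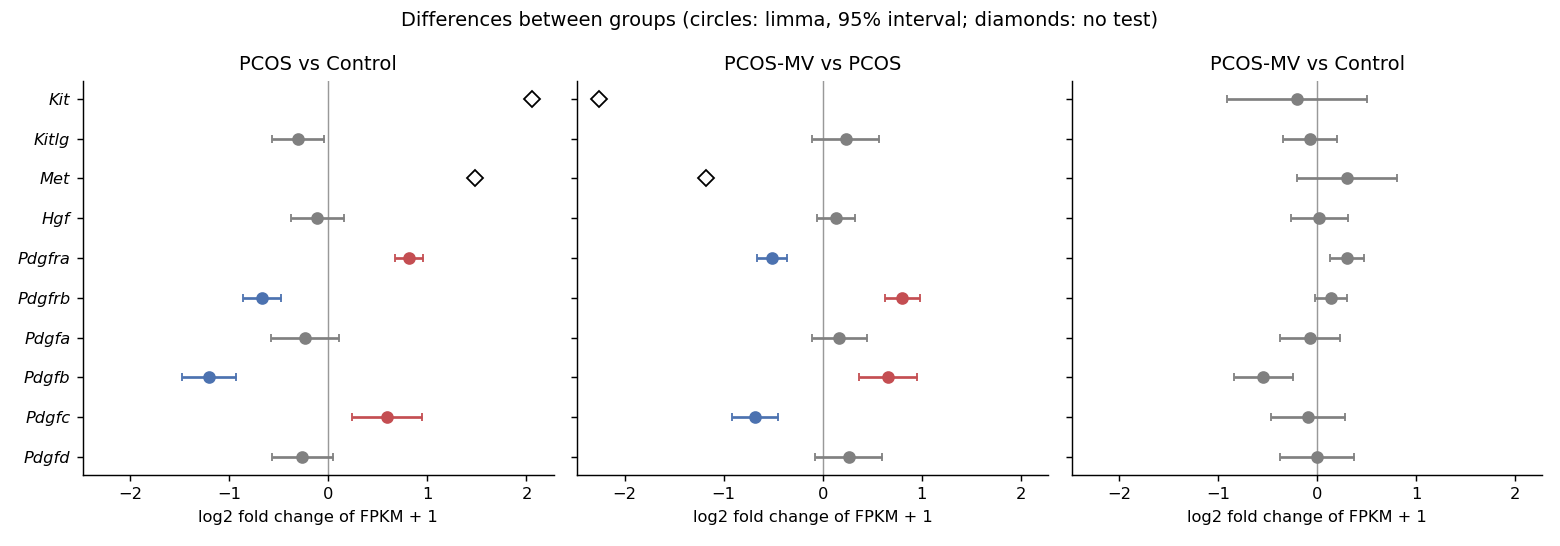
Log2 fold change of FPKM + 1 (x axis) of the 10 genes in the 3 comparisons. Circles are limma estimates with 95% intervals, red where higher and blue where lower at an adjusted p under 0.05 and grey where not passed, and open diamonds mark Kit and Met where no test was made. Pdgfra and Pdgfc lie to the right and Pdgfrb and Pdgfb to the left of 0 in PCOS vs Control, each on the other side in PCOS-MV vs PCOS, and no gene is coloured in PCOS-MV vs Control.

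The genes that act with these receptors were examined in 5 lists of known partners and regulators, and their counts are to be read against the 11.9% of all genes that were higher and the 15.6% that were lower in PCOS vs Control, and against 14.3% and 11.4% in PCOS-MV vs PCOS. Among Kit signalling partners, 20 were tested and 3 were higher and 6 lower in PCOS than in control, with a median log2 fold change of -0.05. Cblb, a ubiquitin ligase that limits receptor signalling, rose from 12.2 ± 1.47 to 23.1 ± 0.262 FPKM (SD, n = 4, adjusted p = 0.000168 from limma). Pik3r1, a regulatory subunit of phosphatidylinositol 3-kinase, and Gab2, a docking protein downstream of Kit, rose by 0.64 and 0.58 on the log2 scale. The 6 partners that were lower included Dok1 (-0.53), Sh2b3 (-0.50) and the related ligase gene Cbl (-0.27). Between PCOS and PCOS-MV libraries, 3 partners were higher and 3 lower, the latter being Pik3r1 (-0.72), Gab2 (-0.70) and the signalling inhibitor Socs1 (-0.43).

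Among the genes of HGF activation and Met regulation, 17 were tested and 1 was higher and 5 lower in PCOS, with a median log2 fold change of -0.27. The genes of the plasminogen activators Plat and Plau, which are secreted proteases, and of the receptor Plaur, which holds Plau at the cell surface, were all among the 5 that fell. Plat was 30.9 to 86.0 FPKM in the control group and 8.47 to 17.7 FPKM in the PCOS group, and its log2 fold change was -1.75 (adjusted p = 0.00481 from limma). Plaur fell by 1.66 and Plau fell by 0.99 on the log2 scale. Between PCOS and PCOS-MV libraries, 5 genes of this list were higher and 1 lower. Plat rose by 2.16 with a wide range of 26.7 to 118 FPKM in the PCOS-MV group, and Plaur rose by 1.24. The gene that was lower was Lrig1, a membrane protein that promotes the degradation of receptor tyrosine kinases. Lrig1 averaged 16.1 ± 3.15 FPKM in PCOS and 7.20 ± 0.447 in PCOS-MV (SD, n = 4 each), a log2 fold change of -1.05.

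Among the genes of PDGF processing and receptor regulation, 17 were tested and 2 were higher and 5 lower in PCOS, with a median of -0.16. In addition to Plat and Plau, which this list shares with the preceding one, A2m, a plasma protein that binds proteases and growth factors, fell by 2.38 on the log2 scale (adjusted p = 0.0168 from limma). Its control libraries ranged from 16.6 to 91.2 FPKM and its PCOS libraries from 2.98 to 15.7 FPKM, so the 2 groups nearly met. In PCOS-MV vs PCOS, 6 genes were higher and 1 lower, and A2m rose by 2.20.

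Other receptor tyrosine kinases and their ligands, of the Csf1r, Flt3 and vascular endothelial growth factor systems, gave 12 tested genes. Of these, 3 were higher and 5 lower in PCOS. The 3 largest changes were falls in the vascular endothelial growth factor system. Vegfa was 40.1 to 54.5 FPKM in the control group and 9.59 to 14.8 FPKM in the PCOS group, a log2 fold change of -1.92 (adjusted p = 4.45e-05 from limma). Its receptor genes Flt1 and Kdr had log2 fold changes of -1.20 and -1.15, so that Kdr was low where Kit, its neighbour on chromosome 14, and Pdgfra were high. In PCOS-MV vs PCOS, 4 genes of this list were higher and 3 lower, with rises of 1.64 for Vegfa, 0.87 for Flt1 and 0.86 for Kdr.

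The last list held genes known to be induced by MAP kinase signalling, most of which restrain it. Of its 12 tested genes, 0 were higher and 6 lower in PCOS, with a median of -0.49, and the 6 included Ccnd1, a cyclin that does not restrain the pathway. Dusp9, a phosphatase of MAP kinase outside the list, had means of 0.494 FPKM in control and 2.14 FPKM in PCOS. It was picked for its likeness to Kit over the 12 libraries, so its higher PCOS mean follows from that choice. Dusp6, a phosphatase of MAP kinase, fell from 25.9 ± 8.46 to 7.44 ± 0.690 FPKM (SD, n = 4, adjusted p = 0.000493 from limma). Spry4 fell by 1.55 and Dusp5 fell by 0.92 on the log2 scale. Between PCOS and PCOS-MV libraries, 4 genes of this list were higher and 1 lower, with Spry4 at 1.10, Dusp6 at 0.64 and Errfi1, an inhibitor of receptor kinases, at -0.96. In PCOS-MV vs Control, 0 genes of the 5 lists passed.

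**Figure D5:**
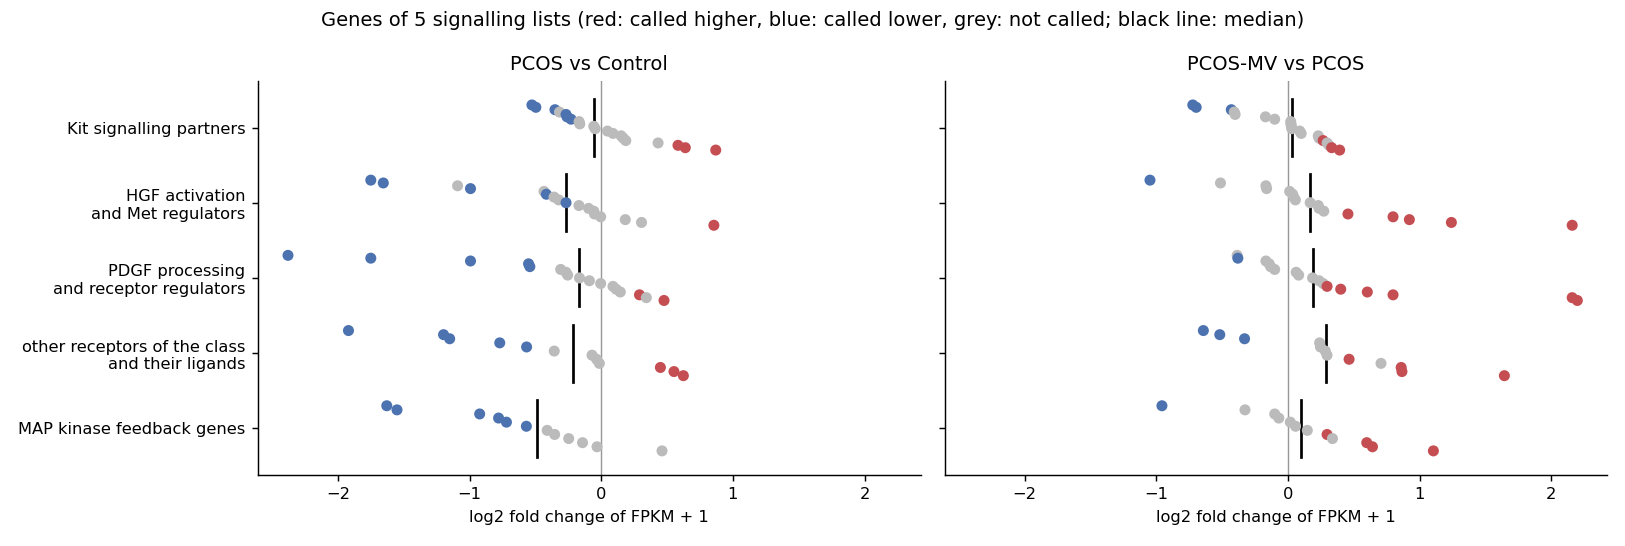
Log2 fold change of FPKM + 1 (x axis) of each tested gene of the 5 signalling lists (rows) for PCOS vs Control on the left and for PCOS-MV vs PCOS on the right. Points are genes, red where higher, blue where lower and grey where not passed, and black lines are list medians, which run from -0.49 to -0.05 on the left and from 0.03 to 0.29 on the right.

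Markers of the cell types that could carry these receptors and ligands moved between the groups too. The counts of markers called, here and in the other marker lists below, are to be read against all genes tested. Of those, 11.9% were higher and 15.6% lower in PCOS vs Control. Of 8 theca-interstitial markers tested, 5 were higher and 3 lower in PCOS than in control, and the defining markers Insl3 and Cyp17a1 were at 906 to 1188 and 655 to 1866 FPKM in the PCOS libraries, against at most 8.84 and 63.6 FPKM in the control libraries. Summed over the list, theca-interstitial markers were at 3398 to 6051 FPKM in control, 3092 to 5890.2 in PCOS and 2525 to 5064 in PCOS-MV libraries. A large part of this sum was Star, which is in the luteal list as well. Star averaged 2219 FPKM in control, 716 in PCOS and 2054 in PCOS-MV. Of 10 granulosa markers, 5 were higher and 0 lower. Those that did not pass were Amh (-0.81 on the log2 scale), Nr5a2 (-0.77), Serpine2 (-0.26), Hsd17b1 (-0.23) and Foxl2 (0.23). The granulosa sums were 948 to 1362 FPKM in control, 1576 to 2234 in PCOS and 865 to 1457 in PCOS-MV libraries. A large part of them was Inha and Gja1, at means of 806 and 541 FPKM in PCOS. These 2 lists thus held markers that were high in the PCOS group together with Kit, Met and Pdgfra, and their part in those values was not tested. Stromal cells also carry Pdgfra, and their part in its values was not tested either. Of the defining stromal markers, Dcn averaged 155 FPKM in control and 183 in PCOS, and Lum 148 and 75.9. Of 10 fibroblast and stromal markers, 2 were higher and 5 lower in PCOS. In PCOS-MV vs PCOS, 4 of these stromal markers were higher and 1 lower, against 14.3% and 11.4% of all genes tested.

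Of 9 endothelial markers tested, 1 was higher and 6 were lower in PCOS, and their sums were 164 to 206 FPKM in control, 116 to 153 in PCOS and 146 to 189 in PCOS-MV libraries. The defining marker Cdh5 (the other, Pecam1, was not analysed here) was at 25.4 to 35.04 FPKM in the control group and 14.7 to 16.0 in the PCOS group. Of 11 pericyte and smooth muscle markers, 0 were higher and 5 were lower. The defining markers Rgs5 and Cspg4 had log2 fold changes of -0.47 and -0.66 and passed the test. The summed list, dominated by contractile genes, was however at 493 to 1043 FPKM in control, 552 to 690 in PCOS and 465 to 785 in PCOS-MV libraries. The highest control sum was that of Control replicate 3, and the other control libraries were at 493 to 634 FPKM. In these vessel-related lists the lower values of the PCOS group went with those of Pdgfb and Pdgfrb, and their part in those values was not tested.

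Kit is also a marker of mast cells. The mast cell proteases Cpa3 and Cma1 were near 0 in the PCOS libraries, at 0.0871 to 0.182 and 0.0641 to 0.166 FPKM. They were equally near 0 in the PCOS-MV libraries, where Kit was low, at 0.102 to 0.180 and 0.0817 to 0.264 FPKM, and higher in the control libraries, at 0.578 to 1.52 and 0.516 to 1.48 FPKM. Only 2 of the 10 mast cell markers reached a mean of 1 FPKM, and the list summed to 10.5 to 18.7 FPKM in control, 11.2 to 13.8 in PCOS and 8.77 to 11.6 in PCOS-MV libraries. Oocyte markers, for the other cells known for Kit, summed to 18.5 to 33.2 FPKM in control, 24.7 to 32.3 in PCOS and 22.0 to 33.1 in PCOS-MV libraries. No gene of the marker lists found in the table was at 0 in all libraries of a group.

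The genes with the pattern most like that of Kit were sought by Pearson correlation of log2(FPKM + 1) over the 12 libraries, as a description, since the 3 groups and their library effects are shared by all genes. They were Slc7a15 (0.988), Dusp9 (0.987), Trmt9b (0.983), Myh6 (0.981) and Irs3 (0.979). Trmt9b had group means of 10.02 FPKM in control, 68.7 in PCOS and 9.78 in PCOS-MV, and Myh6 of 3.21, 46.9 and 3.58. Those most like Met were Epb41l3 (0.978), Eepd1 (0.973), Tnfrsf1b (0.972), Pcbd1 (0.969) and Tmem43 (0.966). Tnfrsf1b, a receptor of tumour necrosis factor, had group means of 10.7, 33.7 and 12.7 FPKM, close to those of Met.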

How the data were processed

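Ovarian RNA of 12 rats was sequenced, 1 library per rat and 4 rats per group, and the titles assigned libraries to groups. The authors removed low-quality reads, aligned the rest, counted them per gene and deposited FPKM. The paper's methods name HISAT2 and featureCounts, whereas the submitters' processing notes name STAR 2.5.1b and HTSeq 0.6.0, so the tools behind the deposited FPKM and the genome build are uncertain. The columns of the PCOS-MV group carry an abbreviation of mogroside and were matched by it. The authors' own fold changes and p-values were not used.

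The table repeats the FPKM of a gene on each of its 26928 transcript lines, and 1 line per gene was kept (19730 genes). limma 3.58.1 (lmFit, eBayes with trend, R 4.3.3) was fitted to log2(FPKM + 1) of the 13430 genes whose mean reached 1 FPKM, 4 libraries against 4, adjusted by Benjamini-Hochberg over all genes tested, with a threshold of 0.05. A count test had been planned in case the table held counts. The limma fit was tested on simulated data. Exact two-sided permutation tests, tables and plots were made with Python 3.11.15 and scipy 1.17.1. Intervals are 95% limma intervals. The members and the gene lists were chosen with earlier results of these data known, so counts over them are descriptions. Named genes were all members, the 3 largest called changes of each signalling list in either comparison with the PCOS group, the first 2 markers of each cell type, and the 5 genes most like Kit and Met. Others, such as Dok1, Sh2b3, Cbl, Ccnd1, Flt3, Flt3lg and further granulosa markers, fell outside this rule and were named with their values known. Alternatives were another pseudocount (0.1), no filter, a joint model of the 12 libraries, the replicate number as a block, rescaled libraries, a 2-fold threshold and each library left out in turn. For the ratios, the alternatives were chosen after seeing the data.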

Additional observations from a re-analysis of the deposited data

Results flagged for a closer look

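Kitlg in PCOS-MV replicate 3 was at 11.95 FPKM, with the other 3 libraries of its group at 8.25 to 8.79 FPKM. Its gap to the nearest of the others was 0.854 of the whole range and exceeded the 95% critical value of Dixon's test for 4 samples. This was 1 of 30 groups of 4 libraries examined for the 10 genes, where chance gives about 1.5. Without this library, the log2 fold change of Kitlg in PCOS-MV vs PCOS was 0.12 (adjusted p = 0.538 from limma).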

How the results depend on the processing

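Of 390 values of the 10 genes under the alternatives, 375 kept their direction and their side of the threshold. Kitlg passed in PCOS vs Control without PCOS replicate 2 (-0.39, adjusted p = 0.0357 from limma) and Pdgfd without Control replicate 1 (-0.37, adjusted p = 0.0439 from limma). Pdgfc no longer passed without PCOS replicate 2 (0.56), 3 (0.58) or 4 (0.57). The other 10 values changed sign and lay near 0 with no test passed, all in PCOS-MV vs Control. Pdgfd was 0.013 with rescaled libraries, and with 1 library left out Pdgfd ranged from -0.123 to 0.0739, Hgf from -0.0532 to 0.102, Pdgfa from -0.144 to 0.0429 and Pdgfc from -0.243 to 0.000519. The ratio of Pdgfc to Pdgfd in that comparison ranged from -0.255 to 0.0268 on the log2 scale. The causes were not tested.

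With a change of at least 2-fold required, which by construction leaves fewer genes, 907 genes passed between PCOS and control and 751 between PCOS-MV and PCOS. With each library left out, 2762 to 3915 and 2445 to 3354 passed, and in PCOS-MV vs Control 1 to 4. Deviations of equally numbered libraries correlated at -0.0327 to 0.0236 between PCOS and control. Between PCOS-MV and PCOS they correlated at 0.0353 to 0.172, with 3 of 4 pairs over 0.1, and between PCOS-MV and control at -0.0534 to 0.216. In no comparison did every pair exceed 0.1, so the numbers were not taken as a pairing. With the number as a replicate block, 2905, 3079 and 0 genes passed in the 3 comparisons, and no call of a member changed. Depth is uncertain, and at 4 rats a group an interval such as that of Kit in PCOS-MV vs Control leaves changes of nearly 2-fold undetected.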

Other observations

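The macrophage receptor gene Csf1r and its ligand gene Csf1, a receptor and ligand of the same class as Kit, were singled out after their values were seen. Csf1r averaged 23.2 ± 2.69 FPKM in control and rose to 31.9 ± 1.09 FPKM in PCOS (SD, n = 4, adjusted p = 0.00646 from limma), and Csf1 rose from 7.04 ± 1.42 to 11.3 ± 0.564 FPKM (adjusted p = 0.00786 from limma). Between PCOS and PCOS-MV the log2 fold changes were -0.33 for Csf1r and -0.64 for Csf1 (adjusted p = 0.0196 and 0.000747 from limma). The other 8 macrophage markers found included Cd68, at 8.21 to 21.2 FPKM in the control group and 8.82 to 11.5 FPKM in the PCOS group, and the 9 markers summed to 161 to 242, 171 to 206 and 193 to 329 FPKM in control, PCOS and PCOS-MV libraries. Flt3lg, the ligand gene of the related receptor Flt3, was higher by 0.55 in PCOS vs Control and lower in PCOS-MV vs PCOS (-0.52), while Flt3 itself, at 1.71 FPKM in control and 1.66 in PCOS, did not pass in either comparison.

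Fibroblast and stromal markers summed to 915 to 1495 FPKM in control, 805 to 894 in PCOS and 823 to 1436 in PCOS-MV libraries, with 2 of 10 higher and 5 lower in PCOS vs Control. Luteal markers summed to 2985 to 5088, 1171 to 2312 and 2207 to 4623 FPKM in the 3 groups, with 2 of 8 tested higher and 3 lower. Among 7 oocyte markers tested, 1 was higher and 0 were lower. Of 9 macrophage markers tested, 2 were higher and 0 lower, with a median log2 fold change of -0.20. Of 8 markers of oviduct and surface epithelium 1 was higher and 0 lower, with a median of -0.95. The control sum of the latter list was 260.7 FPKM in replicate 3 and 25.4 to 40.6 FPKM in the other control libraries. Of the 2 mast cell markers tested, 0 were higher and 1 was lower.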
